A study of Mus musculus with 6 samples.

Results

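Milk protein and secretory luminal genes were followed in sorted mammary cells of pubertal mice. They are 10 genes chosen by symbol, out of 55291 symbols listed in the count files: the caseins Csn1s1, Csn1s2a, Csn2 and Csn3, the whey protein genes Wap and Lalba, the luminal progenitor genes Elf5 and Kit, and the iron-related defence genes Ltf and Lcn2. All 10 symbols were found in all 6 libraries. The study used RNA-seq to ask how cells that express Gpr125, the adhesion G protein-coupled receptor encoded by Adgra3, differ between the growing tips of the ductal tree and its older part. Every library came from Adgra3-lz/+ mice at 6 weeks of age, on an FVBN background, in which lacZ replaces part of 1 Adgra3 allele and marks cells by β-galactosidase activity on the fluorescent substrate FDG. Both abdominal glands of 5 mice were pooled for each library, and cells positive for CD31, CD45 or Ter119 were excluded before sorting cells with high surface CD49f, the integrin alpha 6 chain that is high on basal cells.

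There were 3 groups of 2 libraries. TEB-distal Gpr125+ cells were FDG-positive cells from the distal part of the gland, which holds the terminal end buds (TEB), the bulbs at the tips of elongating ducts. Nipple-proximal Gpr125+ cells were FDG-positive cells from the part nearer the nipple, cut off at the position of the lymph node. Gpr125-negative cells were FDG-negative, and the labels give them no region. Total counts per library were between 20134890 and 37296640, and 3 counts, the smallest level read as a signal here, corresponded to 0.0645 to 0.147 normalized CPM (counts scaled to library size). The libraries carry no molecular identifiers, so that floor covers counting error only. The labels name the libraries of a group as replicates without saying that the pools of mice were separate, so p-values measure the spread between these libraries, which may be technical.

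Adgra3 itself did not follow the sort labels. Its counts were 1658 and 550 with the label Gpr125-negative, 385 and 142 for TEB-distal and 391 and 262 for nipple-proximal Gpr125+ cells. Normalized levels were 35.6 and 18.6, 15.0 and 4.83, and 19.2 and 12.3 CPM in the same order. TEB-distal libraries lay below those labelled Gpr125-negative, and nipple-proximal libraries overlapped them. In the edgeR test used below, TEB-distal over Gpr125-negative had a log2 fold change of -1.45 ± 0.91 (SE). Its unadjusted p was 0.152 and its adjusted p 0.982. Nipple-proximal over Gpr125-negative had -0.78 ± 0.90 (SE), with an unadjusted p of 0.411. The reporter-positive groups were thus not the higher ones, and neither difference passed. Every direction below is therefore between libraries as labelled. The 12 basal markers were present in every library, with summed levels of 3388 to 3550 CPM in the libraries labelled Gpr125-negative, 4011 to 23000 in TEB-distal and 9437 to 14930 in nipple-proximal libraries. Trp63 among them was at 58.0 and 8.39, 7.32 and 6.46, and 17.6 and 9.22 CPM in the same order. The 10 luminal markers, Krt8 and Krt18 included, were present too, at 1641 to 2999, 3040 to 3444 and 2560 to 3234 CPM, so luminal keratin RNA was found in all 6 of these CD49f-high sorts.

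Milk proteins are made by alveolar secretory cells, which descend from luminal progenitors. In pregnancy and lactation prolactin acts through its receptor, the kinase JAK2 and the transcription factor STAT5 to switch on the casein genes, whey acidic protein (Wap) and alpha-lactalbumin (Lalba), the regulatory subunit of lactose synthase. Elf5, an ETS transcription factor, and Kit, a receptor tyrosine kinase, mark the luminal progenitors of the virgin gland, which also make lactoferrin (Ltf) and lipocalin 2 (Lcn2), proteins that keep iron from bacteria. In a pubertal virgin gland caseins are low by comparison with lactation. In bulk RNA, fewer cells of a type and less RNA per cell cannot be told apart.

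The 4 caseins lie in a single cluster of 266.5 kb on chromosome 5 of GRCm38 (mm10), from the start of Csn1s1 at 87666208 to the end of Csn3 at 87932665 in GENCODE M21. The promoters are shown because all 3 caseins that could be searched hold a STAT-type site there. Csn3 could not be searched. The part of these sites in the levels below was not tested. Promoter windows of 300 bases, from 250 before to 50 after each gene's start, were taken from the RefSeq table for GRCm38.p6, which holds 9 of the 10 genes and not Csn3. The letters TTCNNNGAA, which read the same on both strands, were found in 3 of the 9 windows and in 2726 of all 32851 windows, or 8.3%. The narrower form TTCTTNGAA, contained in the wider form, is made of the letters that these 3 matches have in common. Its presence in the same 3 windows therefore follows from the matches, and its share is given as a description. Searched on both strands, it was in 449 of all windows, or 1.37%. The sites are given with 10 bases on either side, 5′ to 3′ on the strand of the gene, with the match in capitals.
Csn1s1: tttgtaacaaTTCTTAGAAtttatgtaaa
Csn2: tcacgtagacTTCTTGGAAttgaagggac
Csn1s2a: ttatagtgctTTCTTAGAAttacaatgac
The Csn1s1 stretch is chr5:87666098-87666126 on the plus strand, and its match begins at position -100 from the RefSeq start. The Csn2 stretch is chr5:87699500-87699528 on the minus strand, with its match at position -93 from the RefSeq start. GENCODE M21 starts Csn2 further upstream, at 87699630, so by that annotation the match lies inside the gene. The Csn1s2a stretch is chr5:87774460-87774488 on the plus strand, and its match lies 21 bases after the RefSeq start, which is upstream of the GENCODE start of that gene at 87774567. The 250 bases before the start of Csn1s1, chr5:87665958-87666207, show the site in its setting, with the same capitals.
Csn1s1 upstream: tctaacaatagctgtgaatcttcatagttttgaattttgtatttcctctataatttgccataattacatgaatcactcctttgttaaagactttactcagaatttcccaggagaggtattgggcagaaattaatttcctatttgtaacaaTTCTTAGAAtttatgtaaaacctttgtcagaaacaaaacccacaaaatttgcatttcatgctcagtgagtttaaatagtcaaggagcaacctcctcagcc
These matches are descriptions of the letters and not evidence that a factor was bound.

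Csn1s2a and Csn2 were read in both TEB-distal Gpr125+ libraries and in no other library. Csn1s2a, an alpha-S2-type calcium-sensitive casein (chr5:87774567-87788797), was at 98 and 189 counts for TEB-distal cells and 0 counts in each of the other 4. That is 3.82 and 6.43 CPM, with a mean of 5.12 ± 1.85 CPM (SD, n = 2). Csn2, beta-casein (chr5:87692624-87699630), was at 63 and 37 counts for TEB-distal cells, or 2.45 and 1.26 CPM, and 0 in the other 4. Its mean there was 1.86 ± 0.845 CPM (SD, n = 2). Both genes therefore separated the TEB-distal libraries from the rest without overlap.

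Set against a floor of 3 counts per library, Csn1s2a was at least 61.7-fold higher in TEB-distal Gpr125+ libraries than in those labelled Gpr125-negative, and at least 35.6-fold higher than in nipple-proximal ones. For Csn2 these bounds were 22.4-fold and 12.9-fold. In the quasi-likelihood test of edgeR, run over 17268 genes, neither gene passed the threshold, which was a false discovery rate (FDR) under 0.1 with at least a 2-fold change. Against the libraries labelled Gpr125-negative the unadjusted p of Csn1s2a was 0.00978 and its adjusted p 0.803, and those of Csn2 were 0.0195 and 0.803. Against nipple-proximal libraries they were 0.0125 and 1 for Csn1s2a, and 0.0254 and 1 for Csn2.

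The call depended on the tool. Both genes passed the filter on low counts solely through the TEB-distal libraries, in which they are high, so their p-values and calls are given as descriptions. With DESeq2 on all 6 libraries Csn1s2a had an adjusted p of 0.00085 against the libraries labelled Gpr125-negative and 0.00996 against nipple-proximal libraries, and Csn2 had 0.0677 and 0.364. With DESeq2 on the 4 compared libraries Csn1s2a had 0.001 and 5.01e-04, and Csn2 had 0.0454 and 0.0535. Such patterns were counted for every pair of libraries. Of all symbols, 33 had at least 30 counts in both TEB-distal libraries and at most 3 in each of the other 4. The same pattern was shown by 34 symbols for replicate 1 of Gpr125-negative with replicate 1 of TEB-distal, by 30 for replicate 1 of Gpr125-negative with replicate 2 of TEB-distal, by 15 for the 2 libraries labelled Gpr125-negative and by 10 for the nipple-proximal pair. The other 10 pairs, all across groups, had 0 to 10.

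Csn1s1, the alpha-S1 casein (chr5:87666208-87682578), did not share the pattern of Csn1s2a and Csn2. It had 54 and 0 counts among libraries labelled Gpr125-negative, 0 and 105 in TEB-distal and 0 and 1 in nipple-proximal libraries. The 2 libraries that held it were at 1.16 CPM, for replicate 1 of Gpr125-negative, and 3.57 CPM, for replicate 2 of TEB-distal. The groups overlapped, with a log2 fold change of 1.51 ± 2.67 (SE) for TEB-distal over Gpr125-negative in edgeR and an adjusted p of 1. Without replicate 2 of TEB-distal that change turned to -3.23, so 1 library set its sign. The TEB-distal library then left has 0 counts, so the size of that value is not measured. Csn1s1 was at least 4.03-fold lower in nipple-proximal libraries than in those labelled Gpr125-negative, and that bound rests on replicate 1 of the latter. Against nipple-proximal libraries it was at least 12.4-fold higher in TEB-distal ones, a bound that rests on replicate 2 of TEB-distal.

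Csn3, kappa-casein (chr5:87925579-87932665), was the only casein read in all 6 libraries. Kappa-casein stabilizes the casein micelle, and it is not a calcium-sensitive casein like the other 3. Csn3 had 511 and 169 counts among libraries labelled Gpr125-negative, 1394 and 327 in TEB-distal and 67 and 71 in nipple-proximal libraries. Normalized levels were 11.0 and 5.72, 54.3 and 11.1, and 3.29 and 3.34 CPM, with means of 8.35 ± 3.72, 32.7 ± 30.5 and 3.31 ± 0.0368 CPM (SD, n = 2 each). The order was TEB-distal, then Gpr125-negative, then nipple-proximal. No 2 groups overlapped on this scale, although the lower TEB-distal library and the higher library labelled Gpr125-negative were nearly level. Scaled by library totals alone they were at 11.2 and 13.7 CPM, so these 2 groups then overlapped.

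The log2 fold change of Csn3 was 1.96 ± 1.03 (SE) in TEB-distal over the libraries labelled Gpr125-negative, with an unadjusted p of 0.0945 and an adjusted p of 0.883 in edgeR. In nipple-proximal libraries it was -1.32 ± 1.00 (SE) against the same libraries, with an unadjusted p of 0.228 and an adjusted p of 1. TEB-distal over nipple-proximal gave 3.28 ± 1.08 (SE), with an unadjusted p of 0.0173 and an adjusted p of 1. That last difference passed with DESeq2 on the 4 compared libraries, with an adjusted p of 0.0193, and not with DESeq2 on all 6, with 0.116. Without replicate 1 of TEB-distal the 2 changes of TEB-distal cells dropped to 0.43 over Gpr125-negative and 1.82 over nipple-proximal, and without replicate 2 they were 2.69 and 4.01. Without replicate 1 of Gpr125-negative the nipple-proximal change was -0.91. Csn3 overlaps the annotated gene 1700066N21Rik and the reads were counted without strand, so reads of the shared part cannot be told apart.

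**Figure D1:**
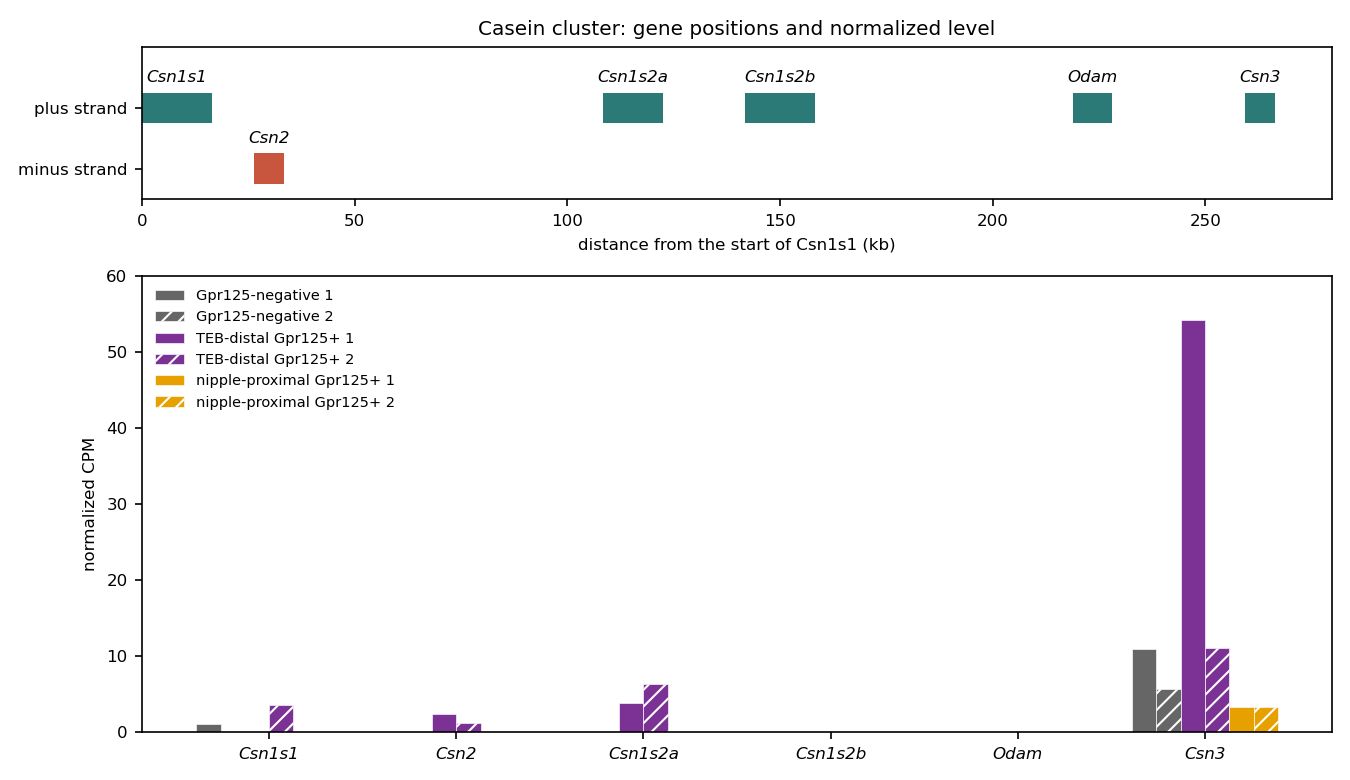
Positions of the casein cluster genes in kb from the start of Csn1s1 (top, by strand) and their normalized level in CPM in each of the 6 libraries (bottom, linear axis from 0; hatched bars are replicate 2). Csn1s2a and Csn2 have bars in both TEB-distal libraries alone, Csn1s1 in 1 library each of Gpr125-negative and TEB-distal, and Csn3 in all 6, up to 54.3 CPM.

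The other genes looked up in and beside the cluster were not read. Csn1s2b, the other alpha-S2-type casein gene, and Odam, which encodes odontogenic ameloblast-associated protein and lies between Csn1s2b and Csn3, had 0 counts in all 6 libraries. Sult1d1, a sulfotransferase gene upstream of Csn1s1, also had 0 counts in all 6. The plot of the casein cluster shows Csn1s2b and Odam as empty positions.

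The whey protein genes were seen in 1 library. Lalba (chr15:98480400-98482721) had 537 counts, or 11.5 CPM, in replicate 1 of the libraries labelled Gpr125-negative and 0 in replicate 2. It had 2 and 0 counts in TEB-distal and 1 and 0 in nipple-proximal libraries. Against the floor it was at least 52.7-fold lower in TEB-distal and at least 40.1-fold lower in nipple-proximal libraries than in those labelled Gpr125-negative, and both bounds rest on that 1 library. Wap (chr11:6635482-6638637) had 8 counts in the same library, 1 count in replicate 1 of nipple-proximal and 0 in the other 4. Neither gene passed the filter on low counts, so neither was tested.

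Over the 6 milk protein genes, summed counts were 1110 and 169 among libraries labelled Gpr125-negative, 1557 and 658 in TEB-distal and 69 and 72 in nipple-proximal libraries. As normalized levels the sums were 23.9 and 5.72, 60.6 and 22.4, and 3.38 and 3.39 CPM. The nipple-proximal libraries were the lowest, and the other 2 groups overlapped. Csn3 made up 46.0% and 100% of these sums among libraries labelled Gpr125-negative, 89.5% and 49.7% in TEB-distal and 97.1% and 98.6% in nipple-proximal libraries. The number of milk protein genes with more than 3 counts was 4 and 1, 3 and 4, and 1 and 1 in the same order.

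**Figure D2:**
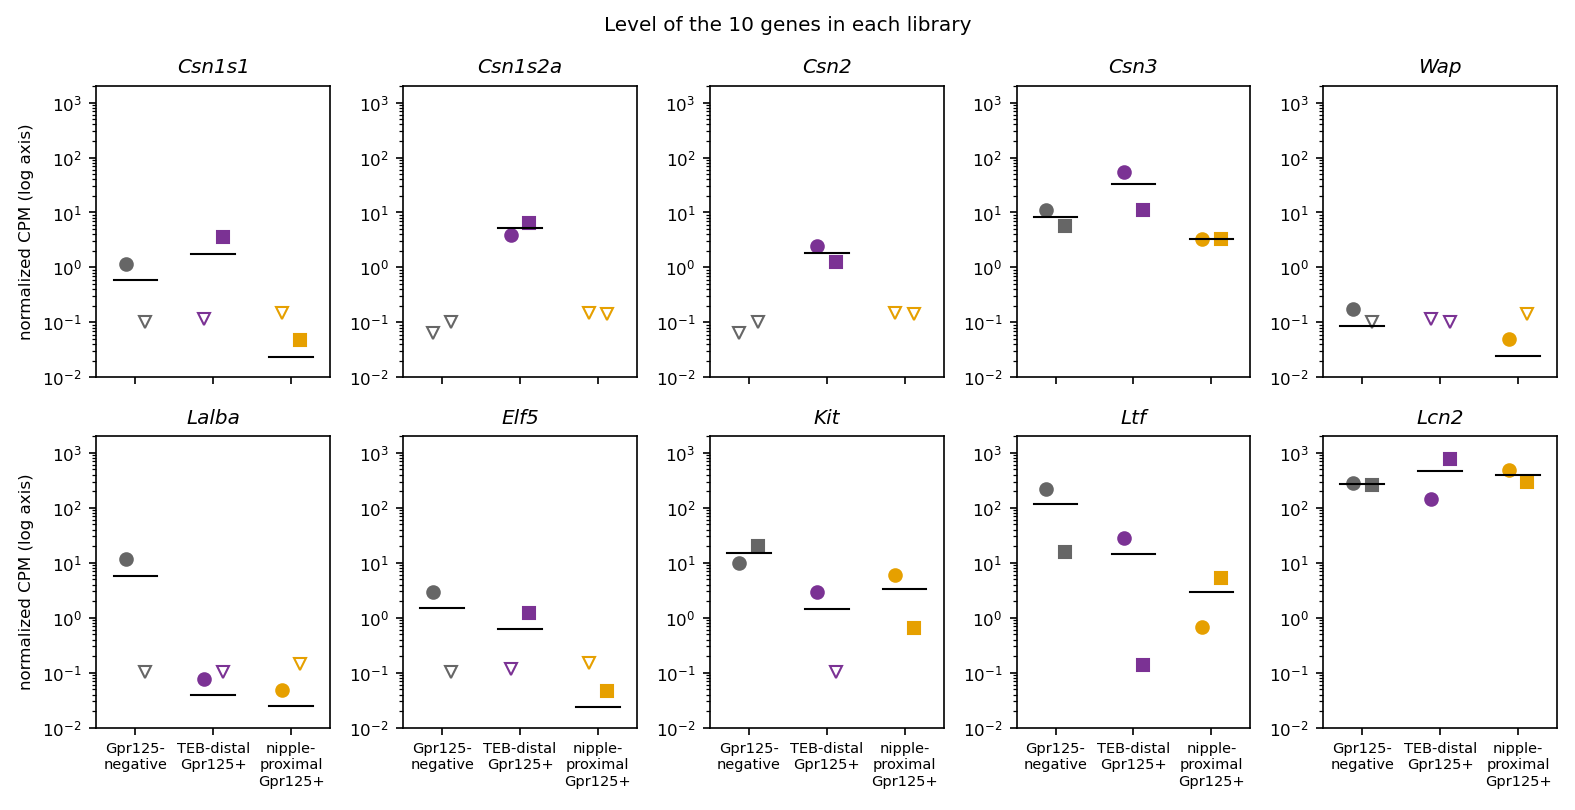
Normalized level of each of the 10 genes in CPM on a log axis, by group (filled circles are replicate 1, filled squares replicate 2, black lines the group mean). Open triangles stand at the floor of 3 counts for libraries with 0 counts, and a filled point below the floor has 1 or 2 counts. Csn3, Ltf and Lcn2 have a count in every library, Kit in 5 of 6, and the other 6 genes in 3 or fewer.

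Elf5 (chr2:103411688-103450989) was read in the same 2 libraries as Csn1s1. This ETS factor is required for alveolar differentiation. Elf5 had 138 and 0 counts among libraries labelled Gpr125-negative, 0 and 36 in TEB-distal and 0 and 1 in nipple-proximal libraries, or 2.97 CPM in replicate 1 of Gpr125-negative and 1.22 CPM in replicate 2 of TEB-distal. The groups overlapped, with a log2 fold change of -1.19 ± 2.64 (SE) for TEB-distal over Gpr125-negative and an adjusted p of 1 in edgeR. Without replicate 1 of Gpr125-negative it turned to 3.14, a value whose size is not measured, as the Gpr125-negative library left has 0 counts. Elf5 was at least 10.3-fold lower in nipple-proximal libraries than in those labelled Gpr125-negative and at least 4.25-fold higher in TEB-distal than in nipple-proximal libraries, each bound resting on 1 library.

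Kit (chr5:75574916-75656722), the receptor for stem cell factor, was highest in the libraries labelled Gpr125-negative. It had 457 and 599 counts there, 74 and 0 in TEB-distal and 124 and 14 in nipple-proximal libraries. Normalized levels were 9.82 and 20.3, 2.88 and 0, and 6.08 and 0.658 CPM, with means of 15.0 ± 7.38, 1.44 ± 2.04 and 3.37 ± 3.84 CPM (SD, n = 2 each). Both libraries labelled Gpr125-negative lay above all 4 Gpr125+ libraries, and the 2 Gpr125+ groups overlapped. The log2 fold change was -3.32 ± 2.19 (SE) for TEB-distal and -2.14 ± 2.09 (SE) for nipple-proximal over Gpr125-negative, both with an adjusted p of 1 in edgeR. Without replicate 1 of TEB-distal the first was -7.84, which rests on a library with 0 counts, so its size is not measured. Without replicate 2 the first was -2.36. The second was -4.38 and -1.30 without replicates 1 and 2 of nipple-proximal. The 2 comparisons share the Gpr125-negative libraries.

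Endothelial marker RNA was also higher in the libraries labelled Gpr125-negative, and melanocyte marker RNA in replicate 2 of them. Kit is made by mast cells and melanocytes as well as luminal progenitors. The 8 endothelial markers summed to 777.2 to 1300 CPM in those libraries, against 17.2 to 20.4 in TEB-distal and 22.2 to 203.9 in nipple-proximal libraries, although CD31-positive cells had been excluded. All 8 were above 3 counts in at least 1 library of every group, and the defining Pecam1 had 2017 and 1659 counts among libraries labelled Gpr125-negative. The 5 melanocyte markers summed to 14.3 to 191.5 CPM, against 1.09 to 4.62 and 0.736 to 0.940. In replicate 1 nearly all of that sum was Tyrp1, with 666 counts or 14.3 CPM. Of the defining melanocyte genes, Dct had 1 and 4019 counts and Pmel 0 and 880 in those libraries, while Mlana was at 0 in all 6 libraries and Tyr had at most 1 count. Of the 8 mast cell markers, the defining Cpa3 was at 0 in all 6 libraries and Mcpt4 had 1 count in 1 library, and 2 of the 8 were above the floor in each group. The 8 mast cell genes summed to 2.23 to 31.2 CPM, against 2.10 to 5.24 and 0.981 to 1.13. In the libraries labelled Gpr125-negative nearly all of that sum was Gata2, at 29.9 and 2.20 CPM. The part of endothelial and melanocyte RNA in the Kit result was not tested.

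**Figure D3:**
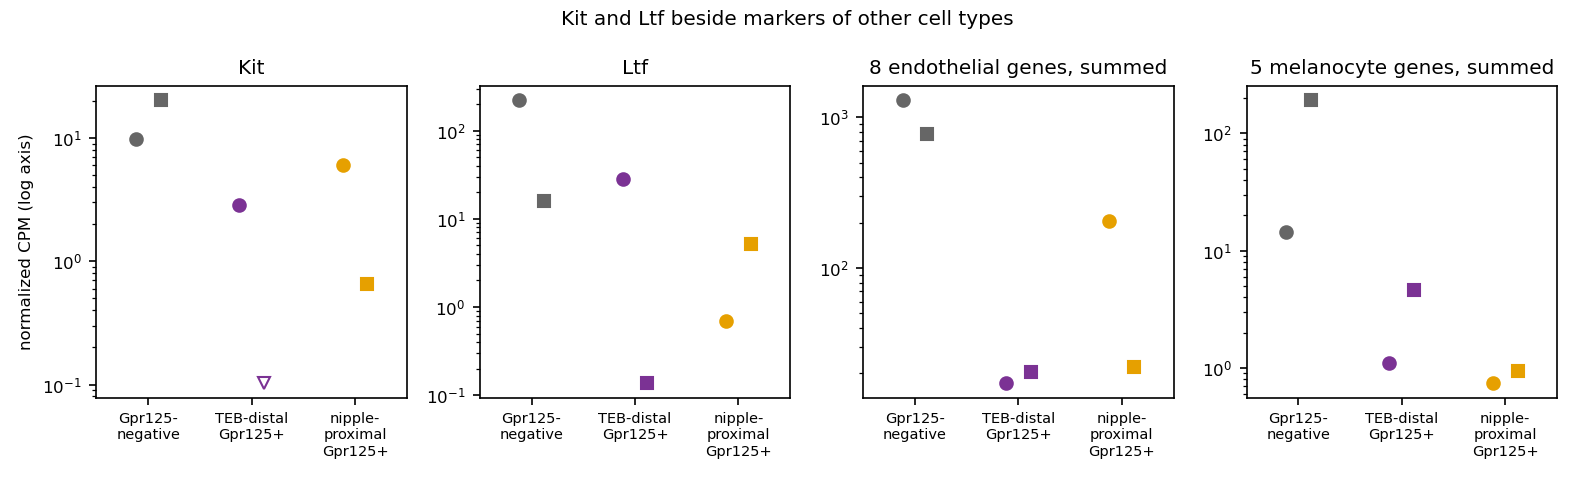
Normalized level in CPM (log axes, each with its own range) of Kit, Ltf, the sum of 8 endothelial genes and the sum of 5 melanocyte genes, by group (circles are replicate 1, squares replicate 2, the open triangle a library with 0 counts at its floor). Kit and both marker sums stand highest for the 2 libraries labelled Gpr125-negative, while the Ltf levels of Gpr125-negative and TEB-distal libraries overlap.

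Ltf (chr9:111019271-111042767), which encodes the iron-binding milk protein lactoferrin, was read in all 6 libraries but differed widely between replicates. It had 10306 and 469 counts among libraries labelled Gpr125-negative, 728 and 4 in TEB-distal and 14 and 111 in nipple-proximal libraries. Normalized levels were 221.5 and 15.9, 28.4 and 0.136, and 0.687 and 5.22 CPM, with means of 118.7 ± 145.4, 14.2 ± 20.0 and 2.95 ± 3.21 CPM (SD, n = 2 each). Both libraries labelled Gpr125-negative were above both nipple-proximal ones, and TEB-distal overlapped both other groups.

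Ltf was lower in nipple-proximal libraries than in those labelled Gpr125-negative by a log2 fold change of -5.30 ± 2.27 (SE), with an unadjusted p of 0.0490 and an adjusted p of 1 in edgeR. Here too the call depended on the method. The adjusted p was 0.0191 from DESeq2 on the 4 compared libraries and 0.119 on all 6, and edgeR on every gene with at least 1 count gave 8.32e-04. Leaving out 1 library moved the change to between -7.30, without replicate 2 of nipple-proximal, and -2.55, without replicate 1 of Gpr125-negative. For TEB-distal over Gpr125-negative the log2 fold change was -3.05 ± 2.04 (SE), with an adjusted p of 1 in edgeR, and it ranged from -9.16 without replicate 1 of TEB-distal to -0.31 without replicate 1 of Gpr125-negative. For TEB-distal over nipple-proximal it was 2.24 ± 1.97 (SE), with an adjusted p of 1, and it turned to -3.80 without replicate 1 of TEB-distal.

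Lcn2 (chr2:32384633-32388252), the siderophore-binding lipocalin 2, had the highest level of the 10 genes per kb of principal transcript in every library. It had 13299 and 7633 counts among libraries labelled Gpr125-negative, 3720 and 23104 in TEB-distal and 9868 and 6348 in nipple-proximal libraries. Normalized levels were 285.8 and 258.2, 144.9 and 785.5, and 484.0 and 298.5 CPM, with means of 272.0 ± 19.5, 465.2 ± 453.0 and 391.2 ± 131.2 CPM (SD, n = 2 each). The TEB-distal libraries held both the lowest and the highest of the 6 values. Nipple-proximal libraries were just above those labelled Gpr125-negative on this scale, and overlapped them when scaled by library totals or by DESeq2 size factors. The log2 fold changes were 0.77 ± 0.89 (SE) for TEB-distal and 0.52 ± 0.89 (SE) for nipple-proximal over Gpr125-negative, and 0.25 ± 0.89 (SE) for TEB-distal over nipple-proximal, each with an adjusted p of 1 in edgeR. Both TEB-distal changes turned negative without replicate 2 of TEB-distal, at -0.91 and -1.43. Lcn2 made up 52.5% to 97.9% of the counts of the 10 genes.

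Neutrophils also make lactoferrin and lipocalin 2. Of the 10 neutrophil markers, the defining Ngp had at most 1 count and Camp at most 7 in any library, and S100a8 had 12 to 279. Their sums were 0.988 to 9.78 CPM in the libraries labelled Gpr125-negative, 7.38 to 12.03 in TEB-distal and 2.31 to 6.86 in nipple-proximal libraries, where 5, 4 and 5 of the 10 were above the floor. The 8 leukocyte markers, with Ptprc defining, summed to 66.8 to 77.1, 133.2 to 300.8 and 110.0 to 190.2 CPM. Cd68 made up most of these sums, at 71.0 and 43.2, 118.7 and 289.6, and 177.9 and 99.1 CPM. Ptprc was at 1.98 and 2.67, 9.23 and 2.07, and 2.75 and 4.28 CPM in the same order. Cd68 was highest in the TEB-distal library of the highest Lcn2, and Ptprc in that of the lowest. The part of leukocyte RNA in the Ltf and Lcn2 results was not tested.

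Per kb of principal transcript, the order of the genes within libraries can be compared. Lcn2 was at 158.3 to 858.5 normalized CPM per kb and came first in 6 of 6 libraries. Csn3, at 2.06 to 34.0 CPM per kb, came second in replicate 1 of TEB-distal, and likewise in each nipple-proximal library. In replicate 2 of TEB-distal Csn1s2a and Csn3 were level, at 6.99 and 6.97 CPM per kb. Ltf came second in both libraries labelled Gpr125-negative, at 80.7 and 5.78 CPM per kb. Between groups, the mean level per kb of Kit was 2.87, 0.275 and 0.643 CPM in the order Gpr125-negative, TEB-distal and nipple-proximal.

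In the comparison of TEB-distal Gpr125+ with Gpr125-negative libraries, 0 of the 8 tested members passed the threshold in edgeR, beside 0% of all genes tested. The smallest adjusted p over all genes was 0.485. At an unadjusted p under 0.05 there were 2 members, beside 6.05% of all genes. The groups did not overlap for 3 members that were higher in TEB-distal, Csn1s2a, Csn2 and Csn3, beside 14.0% of all genes, and for 1 that was lower, Kit, beside 10%. Csn1s2a and Csn2 passed the filter through TEB-distal libraries alone, which fixed their side in both comparisons with these libraries, so the counts and medians of members are descriptions. DESeq2 on all 6 libraries called 2 members, beside 5.43% of the genes it tested, and DESeq2 on the 4 compared libraries called 2, beside 4%. The median log2 fold change of the 8 members was 1.14, beside 0.03 for all genes. Leaving out 1 library moved that median to between -1.49, without replicate 2 of TEB-distal, and 2.75, without replicate 1 of Gpr125-negative.

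In the comparison of nipple-proximal Gpr125+ with Gpr125-negative libraries, 0 of the 8 tested members passed in edgeR, beside 0% of all genes, and the smallest adjusted p over all genes was 1. Ltf was the 1 member at an unadjusted p under 0.05, beside 3.55% of all genes. The groups did not overlap for 3 members that were lower in nipple-proximal libraries, Csn3, Kit and Ltf, beside 10.8% of all genes, and for 1 that was higher, Lcn2, beside 19.9%. DESeq2 called 0 members on all 6 libraries, beside 1.98% of the genes it tested, and 1 member, Ltf, on the 4 compared libraries, beside 2.02%. Csn1s2a and Csn2 were at 0 counts in all 4 libraries and have no fold. The median log2 fold change of the other 6 was -2.47, or -2.07 with Csn1s1 and Elf5 at their bounds, beside -0.0031 for all genes. Csn1s1 and Elf5 passed the filter on low counts through replicate 1 of Gpr125-negative and replicate 2 of TEB-distal alone. That fixed their side in both comparisons with nipple-proximal libraries, so this median is a description.

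Between the 2 Gpr125+ populations, 0 of the 8 tested members passed in edgeR, beside 0% of all genes, and the smallest adjusted p over all genes was again 1. At an unadjusted p under 0.05 there were 3 members, Csn1s2a, Csn2 and Csn3, beside 2.21% of all genes. The same 3 caseins separated the groups without overlap, higher for TEB-distal cells, beside 15.2% of all genes, and 0 members were lower without overlap, beside 18.3%. Of the 3, Csn3 alone did not owe its place to the filter. DESeq2 called 1 member, Csn1s2a, on all 6 libraries, beside 0.743% of the genes it tested, and all 3 on the 4 compared libraries, beside 2.29%. The median log2 fold change of the 8 members was 3.08, or 2.76 with those at the floor set to their bounds, beside 0.06 for all genes. It too is a description, because Csn1s1, Csn1s2a, Csn2 and Elf5 owe their side here to the filter. With 2 libraries a group the smallest exact two-sided permutation p of a single value is 0.333, so no such test could pass.

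**Figure D4:**
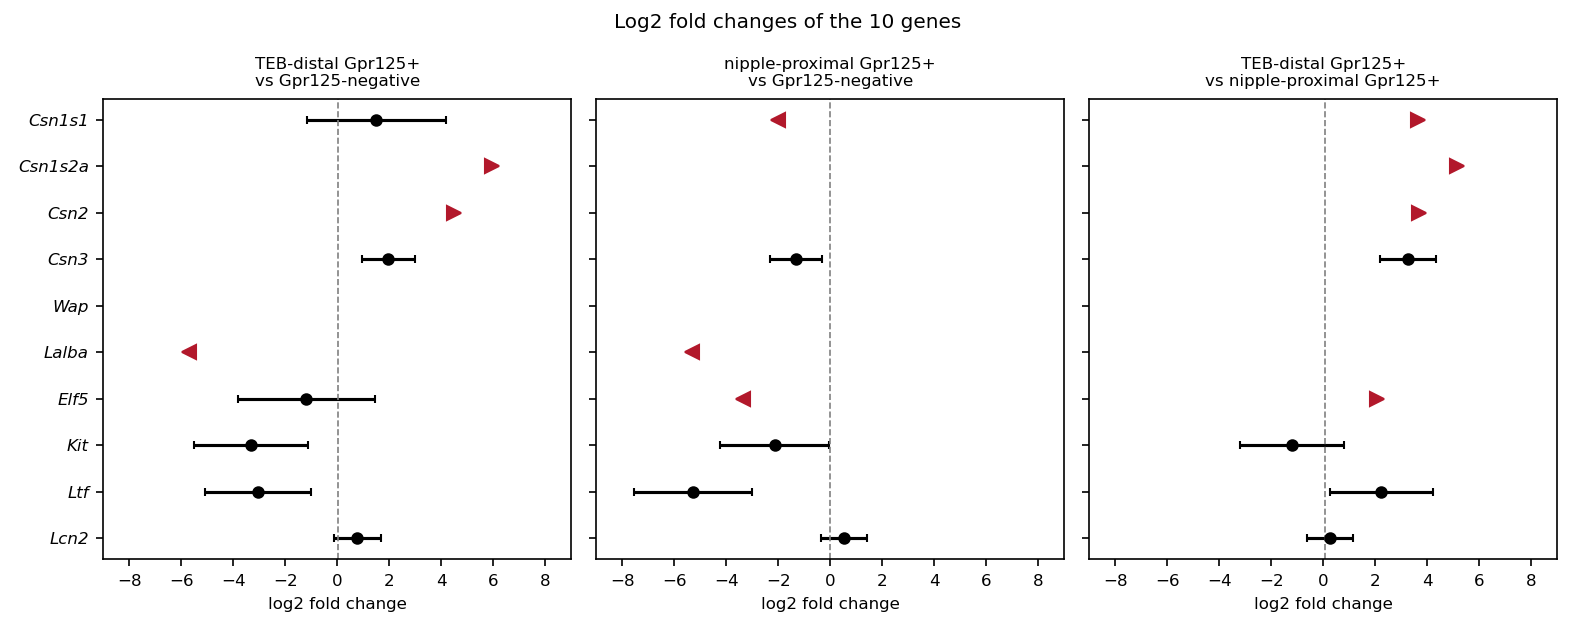
Log2 fold changes of the 10 genes in the 3 comparisons (black points with bars of 1 SE from edgeR; red triangles are lower bounds against 3 counts per library, pointing in the direction of the difference; the dashed line is the median of all genes tested). Genes with no symbol in a panel were at or under the floor in both groups or, for Wap, too low for a bound. The 3 caseins Csn1s2a, Csn2 and Csn3 lie to the right in both panels with TEB-distal libraries, and Kit and Ltf lie to the left in both panels against Gpr125-negative libraries.

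Replicates often disagreed on whether a gene was read at all. Of the 8 tested members, 2 had at least 30 counts in one library labelled Gpr125-negative and at most 3 in the other (Csn1s1 and Elf5), beside 16.4% of all genes tested. The same held for 3 members in TEB-distal libraries, Csn1s1, Elf5 and Kit, beside 7.76%, and for 0 members in nipple-proximal libraries, beside 1.01%. Lalba, which was not tested, did so in the libraries labelled Gpr125-negative. Replicate 1 of Gpr125-negative and replicate 2 of TEB-distal, in which Csn1s1 and Elf5 were read, shared 30 such symbols that were at 3 counts or fewer in the other 4 libraries.

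Other milk protein and secretory genes did not share 1 direction. Of 17 listed, 15 were tested, 0 passed in edgeR in any comparison, and the median log2 fold change was -1.52 for TEB-distal and -0.54 for nipple-proximal over Gpr125-negative and -0.18 for TEB-distal over nipple-proximal. Unadjusted p-values under 0.05 were counted for 3 genes, all lower in TEB-distal libraries, for 1 higher and 4 lower in nipple-proximal libraries, and for 1 higher and 1 lower in TEB-distal than in nipple-proximal libraries. Over all genes tested the shares at that p were 6.05%, 3.55% and 2.21% in edgeR, in the same order. The median log2 fold changes of all genes were 0.03, -0.0031 and 0.06.

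Glycam1, a mucin-like protein of milk whey that is also made by the endothelium of lymph node venules, ran opposite to the caseins. It had 13 and 2 counts among libraries labelled Gpr125-negative, 0 and 0 in TEB-distal and 3437 and 901 in nipple-proximal libraries, so the nipple-proximal libraries stood apart from the other 4. The log2 fold change of nipple-proximal over Gpr125-negative was 8.73 ± 1.31 (SE), with an unadjusted p of 3.57e-04 and an adjusted p of 1 in edgeR. Glycam1 was at least 964.0-fold lower in TEB-distal than in nipple-proximal libraries, with an unadjusted p of 1.34e-04 and an adjusted p of 1. The endothelial marker sums, given above, were highest with the label Gpr125-negative. They were 22.2 to 203.9 CPM in nipple-proximal against 17.2 to 20.4 CPM in TEB-distal libraries, and the part of endothelial RNA in the Glycam1 result was not tested.

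Spp1, the secreted phosphoprotein osteopontin, had 37082 and 1799 counts among libraries labelled Gpr125-negative, 44112 and 1493 in TEB-distal and 98 and 170 in nipple-proximal ones. The log2 fold change was -6.05 ± 1.91 (SE) for nipple-proximal over Gpr125-negative and 7.09 ± 2.01 (SE) for TEB-distal over nipple-proximal, each with an adjusted p of 1 in edgeR. Like Csn3, Spp1 was lowest in both nipple-proximal libraries. Btn1a1, butyrophilin of the milk fat globule membrane, had 501 and 98, 97 and 28, and 0 and 7 counts, with a log2 fold change of 3.38 ± 1.88 (SE) for TEB-distal over nipple-proximal. Trf, transferrin, had 10088 and 6134, 1795 and 236, and 2168 and 1665 counts, and was lower in TEB-distal than in Gpr125-negative libraries by a log2 fold change of -2.44 ± 1.00 (SE), with an adjusted p of 0.815 in edgeR. Cd36, a fatty acid transporter that endothelium also makes, had 228 and 6409, 4 and 74, and 49 and 28 counts, with log2 fold changes of -6.30 ± 1.97 and -5.85 ± 1.93 (SE) against Gpr125-negative, and the part of endothelial RNA in it was not tested. Slpi, a secreted protease inhibitor, had -2.13 ± 0.97 (SE) for TEB-distal over Gpr125-negative.

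The genes of milk fat and lactose synthesis went both ways, with list medians near that of all genes. Of 18 listed, 16 were tested and 0 passed, with medians of -0.00335 for TEB-distal and -0.25 for nipple-proximal over Gpr125-negative and -0.29 for TEB-distal over nipple-proximal. Between TEB-distal and nipple-proximal libraries 3 did not overlap and were higher, beside 15.2% of all genes, and 6 were lower, beside 18.3%. At an unadjusted p under 0.05 there was 1 gene of the list, in nipple-proximal against Gpr125-negative libraries, beside 3.55% of all genes. This was Slc2a1, the glucose transporter that feeds lactose synthesis. It had 37080 and 45215 counts among libraries labelled Gpr125-negative, 19515 and 75238 in TEB-distal and 87272 and 124544 in nipple-proximal libraries, with a log2 fold change of 2.12 ± 0.91 (SE) for nipple-proximal over Gpr125-negative and an adjusted p of 1 in edgeR. Lpl, lipoprotein lipase, had log2 fold changes of 3.37 ± 1.95 (SE) for TEB-distal over Gpr125-negative and 3.07 ± 1.94 (SE) over nipple-proximal.

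Of the prolactin, STAT5 and alveolar regulators none passed the test. Of 24 listed, 22 were tested, 0 passed and 0 had an unadjusted p under 0.05 in any of the 3 comparisons. Over all genes 6.05%, 3.55% and 2.21% did, in the order above. The medians of the list were -0.15, -0.19 and -0.0088. Prlr, the prolactin receptor, had 766 and 1 counts among libraries labelled Gpr125-negative, 2983 and 0 in TEB-distal and 7 and 3 in nipple-proximal libraries, so it was high in replicate 1 of each of the first 2 groups. Stat5a had 543 and 19, 137 and 55, and 151 and 74 counts. Hey1, a Notch target, had log2 fold changes of -1.53 ± 0.96 (SE) for TEB-distal over Gpr125-negative and -1.75 ± 0.96 (SE) over nipple-proximal. Prlr and Stat5a are outside the rule by which list genes were named, and were added after their values were seen.

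Among 14 genes of KIT ligand and signalling, all tested, 0 passed. Gab2, a docking adaptor of receptor tyrosine kinases, was low where Kit was low. It had 956 and 749 counts among libraries labelled Gpr125-negative, 28 and 7 in TEB-distal and 165 and 168 in nipple-proximal libraries, and the 3 groups did not overlap. Its log2 fold change was -4.97 ± 1.23 (SE) for TEB-distal over Gpr125-negative, with an unadjusted p of 0.00383 and an adjusted p of 0.803 in edgeR, and -3.46 ± 1.14 (SE) over nipple-proximal. Kitl, the KIT ligand, had 2115 and 17945, 7540 and 1914, and 7898 and 9637 counts. The medians of the list were -0.05, 0.09 and -0.33.

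Among 19 genes of iron binding and innate defence, 17 were tested, 0 passed, and the medians were -0.11, -0.36 and 0.41. Wfdc18, a WAP-domain protein of milk, had 5924 and 78 counts among libraries labelled Gpr125-negative, 601 and 102 in TEB-distal and 22 and 36 in nipple-proximal ones. The log2 fold change was -5.48 ± 1.82 (SE) for nipple-proximal over Gpr125-negative, with an adjusted p of 1 in edgeR. Cd14, a co-receptor for bacterial lipopolysaccharide that luminal progenitors express, had 2604 and 501, 173 and 113, and 182 and 97 counts, with log2 fold changes of -2.77 ± 0.99 and -2.42 ± 0.98 (SE) against Gpr125-negative. Saa1, an acute phase protein, had 0 counts in both libraries labelled Gpr125-negative, 38 and 72 in TEB-distal and 4 and 0 in nipple-proximal libraries, and was at least 23.7-fold higher in TEB-distal than in Gpr125-negative libraries.

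The luminal progenitor list, which holds Kit and Elf5, had 10 tested genes and 0 that passed, with medians of -0.90, -1.67 and -0.11. The hormone-sensing luminal list had 8 tested genes of 9 and 0 that passed, with medians of 1.58, 0.62 and 2.30, and the luminal list had medians of 0.59, 0.14 and 0.33. The basal list had medians of 2.54, 1.90 and 0.72, with 0 of 12 passed. Of its defining markers, Krt14 and Acta2 had positive log2 fold changes in both Gpr125+ groups over Gpr125-negative. Trp63 went the other way, at -2.26 ± 1.07 for TEB-distal and -1.30 ± 1.04 (SE) for nipple-proximal.

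The genes nearest in pattern to the members were found by Pearson's r of log2 CPM over the 6 libraries, as a description. Csn2 was matched at r = 1.0 by 1700067G17Rik, Ntm and BC022960, each at 0 in the 4 libraries outside TEB-distal, and 173 genes had r over 0.9. Elf5 was matched by A930001C03Rik (r = 0.999), Gm44423 (0.998) and Tsnaxip1 (0.993), and 231 genes had r over 0.9. Kit was matched by Gm26631 (0.99), St3gal6 (0.99) and Tnfaip2 (0.986), and Lcn2 by Gm12751 (0.991), Gm49594 (0.988) and Ell (0.987).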

How the data were processed

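Reads of SMART-Seq HT libraries were aligned by the authors to mm10 with STAR and counted per gene with HTSeq. The paper and the submitters' processing notes name different STAR versions (the notes give 2.7.3), and the annotation release used for counting is not given in the sources used here. The deposited files hold whole-number read counts per gene, unstranded and not normalized, 1 library per file. From them, R 4.3.3 with edgeR 4.0.16 computed TMM-normalized CPM, and the quasi-likelihood test (filterByExpr, robust, prior count 2) on all 6 libraries in 1 model, with Benjamini-Hochberg adjustment over 17268 genes. A gene was called at an FDR under 0.1 with at least a 2-fold change. DESeq2 1.42.0, other filters, other scalings, a replicate block and leaving out each library were alternatives. Folds against groups with at most 3 counts per library are lower bounds. Standard errors came from the F statistic. Levels per kb used the principal protein-coding transcript in GENCODE M21. Tables and figures used Python 3.11.15, pandas 2.3.3 and matplotlib 3.10.9. Scripts were tested on simulated data.

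The members and gene lists were chosen with earlier results of these data known. List genes were named by a rule: up to 3 tested genes per list and comparison with the largest fold change and groups that did not overlap, any called gene, the defining markers, and the genes of the casein cluster. Not all genes the rule allows are printed. Count files were assigned to groups by the sample titles.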

Additional observations from a re-analysis of the deposited data

Results flagged for a closer look

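Csn3 was the 1 gene of the 10 whose Gpr125+ populations lay on opposite sides of the libraries labelled Gpr125-negative. Both TEB-distal libraries were above both of these, and both nipple-proximal libraries were below them. The difference between the 2 contrasts, which share those libraries, is TEB-distal over nipple-proximal, at 3.28 on the log2 scale, with an unadjusted p of 0.0173 and an adjusted p of 1 in edgeR. Leaving out 1 library gave 1.82, without replicate 1 of TEB-distal, to 4.01, without replicate 2. TEB-distal over Gpr125-negative, at 1.96, ranged from 0.43 to 2.69 without the same libraries. Scaled by library totals, the TEB-distal and Gpr125-negative libraries overlapped.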

How the results depend on the processing

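Under alternatives other than leaving out a library, the members' fold changes were counted once per gene, comparison and alternative. Of these values 227 kept their direction and side of the threshold, 10 passed it, and 1 turned. The last was Ltf in TEB-distal over nipple-proximal, at -0.80 with a replicate block. The replicate numbers do not mark a shared pool in the labels, and deviations of same-numbered libraries correlated at -0.035, 0.194 and -0.005 over genes. The block changed no member's call. In the order TEB-distal over Gpr125-negative, nipple-proximal over Gpr125-negative and TEB-distal over nipple-proximal, DESeq2 on all 6 libraries called 943, 321 and 129 genes and 2, 0 and 1 members, against 0 in edgeR, where 1045, 613 and 381 genes had an unadjusted p under 0.05. DESeq2 on the 4 compared libraries called 667, 317 and 360 genes and 2, 1 and 3 members. edgeR on every gene with at least 1 count called 137, 58 and 39 genes and 0, 1 and 0 members. Leaving out 1 library, edgeR called 0 to 579, 0 to 185 and 0 genes, both highest counts without replicate 1 of Gpr125-negative. The cause was not tested.

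Leaving out 1 library turned 6 fold changes. In TEB-distal over Gpr125-negative the ranges were -4.48 to 3.14 for Elf5, -3.23 to 4.57 for Csn1s1 and -0.91 to 1.54 for Lcn2, and the member median ranged from -1.49 to 2.75. In TEB-distal over nipple-proximal they were -5.62 to 1.06 for Kit, -3.80 to 4.25 for Ltf and -1.43 to 1.10 for Lcn2. Both ends for Elf5 and Csn1s1 and the lower end for Kit rest on a group left with 1 library at 0 counts. Their size is therefore not measured. Ltf kept its sign in TEB-distal over Gpr125-negative, at -9.16 to -0.31. In the order of comparisons given above, the median log2 fold change of all genes was 0.03, -0.0031 and 0.06 with TMM. It was -0.02, -0.22 and 0.20 with library totals, and -0.002, -0.16 and 0.19 with DESeq2 size factors. The spread between replicates, a biological coefficient of variation of 0.967, and the floor of 3 counts limit what these libraries can show.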
